A study of Mus musculus with 2 samples.

Results

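A set of 10 chemokine-system genes that guide T cells was followed through 2 single-cell libraries of mouse pancreatic tumours: the ligands Cxcl9, Cxcl10, Cxcl16, Ccl17, Ccl22 and Ccl20 and the receptors Cxcr3, Cxcr6, Ccr4 and Ccr7. They were chosen by symbol, 10 of the 32285 genes in the deposited gene table, and all 10 were found. One library came from KPPC mice given vehicle and the other from KPPC mice given takinib at 50 mg/kg, in both groups mice that were 6 weeks old and treated over 14 days. KPPC mice are a genetic model of pancreatic ductal carcinoma, and the labels do not list the alleles or the Cre driver. Takinib blocks the kinase TAK1, which stands upstream of NF-kB, JNK and p38 signalling. The tumours were digested to single cells without a stated sort. The number of mice pooled into each library is not given in the sources used here. With 1 library per group there is no estimate of the spread between animals and no test, so each difference below is a difference between these 2 libraries. Intervals in square brackets are exact 95% intervals that cover counting error only.

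After filtering, 9558 vehicle cells and 25183 takinib cells remained, with medians of 3556 and 2887 unique molecular identifiers (UMIs, each standing for 1 captured RNA molecule) and 42000538 and 119726977 UMIs in all. The libraries stood apart in several ways. Their counts were made with different releases of Cell Ranger (4 and 6.1.1, per the headers), mitochondrial UMIs took a median share of 8.70% against 1.79%, and 359 barcodes were kept in both. The vehicle library held 1075 cells with Xist and no Y-linked UMI and 3087 cells of male origin, whereas the takinib library held 0 Y-linked UMIs. Macrophage-like cells made up 51.0% of vehicle cells and 16.1% of takinib cells, and neutrophil-like cells 2.81% and 48.1%. The tissue label was matched by 1539 and 1786 epithelial-like cells with keratin genes, but only 18 and 20 cells were acinar-like, and epithelial clusters led by gastric (Gkn1, Tff2) and goblet (Muc2, Spink4) genes were present beside the one led by Krt7 and Msln. The neutrophil genes S100a8 and S100a9 had at least 1 UMI in 96.2% of takinib and 13.3% of vehicle epithelial-like cells. Classes are named from clusters by marker genes, none of which is among the 10 genes, and the 10 genes were left out of the clustering. The monocyte-like class, led by Saa3 and F13a1, is only loosely set apart from macrophages. At a finer resolution a cluster led by those genes, with 2064 takinib cells, stayed unnamed. Its monocyte and macrophage scores were 0.313 and 0.306.

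Chemokines are small secreted proteins that pull leukocytes along a gradient through receptors on the cell surface. CXCL9 and CXCL10 are made in response to interferon and bind CXCR3 on activated T and natural killer cells. CXCL16 is a membrane-anchored ligand, released by ADAM proteases, for CXCR6 on tissue-resident and effector T cells. CCL17 and CCL22 bind CCR4, a receptor of regulatory and type 2 T cells, and CCL20 binds CCR6 on IL-17-producing lymphocytes. CCR7 leads naive T cells and mature dendritic cells to lymph nodes. In pancreatic carcinoma these systems are studied because T cells are often sparse among the tumour cells.

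The stretch of 250 bases before the transcription start was read for 8 of the 10 genes from RefSeq sequence of build GRCm38.p6, and 4 of them are printed because they set the members apart by the sites their letters hold. The 5 patterns below were searched on both strands: the NF-kB consensus, the AP-1 site (TGAGTCA or TGACTCA), the interferon-response repeat GAAANNGAAA, and the STAT-type sites TTCNNNGAA and TTCNNNNGAA. Capitals mark the matches, and each sequence runs 5′ to 3′ on the gene's own strand.
Cxcl10 (chr5:92348890-92349139, minus strand): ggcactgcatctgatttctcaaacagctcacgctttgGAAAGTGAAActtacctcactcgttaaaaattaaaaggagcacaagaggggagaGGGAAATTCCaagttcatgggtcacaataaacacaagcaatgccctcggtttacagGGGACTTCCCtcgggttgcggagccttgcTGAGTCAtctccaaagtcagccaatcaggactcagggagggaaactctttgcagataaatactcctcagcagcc
Cxcl9 (chr5:92328080-92328329, minus strand): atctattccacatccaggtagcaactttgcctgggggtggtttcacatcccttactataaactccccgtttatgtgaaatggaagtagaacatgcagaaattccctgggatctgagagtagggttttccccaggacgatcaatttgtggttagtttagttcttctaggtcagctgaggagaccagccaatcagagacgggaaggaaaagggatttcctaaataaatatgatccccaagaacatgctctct
Ccl17 (chr8:94810203-94810452, plus strand): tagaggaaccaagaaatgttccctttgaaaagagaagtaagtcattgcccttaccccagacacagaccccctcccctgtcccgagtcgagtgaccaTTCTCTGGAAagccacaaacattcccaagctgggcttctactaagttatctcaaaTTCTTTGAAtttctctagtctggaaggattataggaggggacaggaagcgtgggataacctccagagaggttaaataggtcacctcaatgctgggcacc
Ccl20 (chr1:83116516-83116765, plus strand): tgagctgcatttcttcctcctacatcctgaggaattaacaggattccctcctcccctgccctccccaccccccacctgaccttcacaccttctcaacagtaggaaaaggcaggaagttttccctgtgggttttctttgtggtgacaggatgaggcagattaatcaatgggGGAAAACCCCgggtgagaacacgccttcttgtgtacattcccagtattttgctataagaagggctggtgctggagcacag

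The Cxcl10 window held 2 NF-kB matches, ending 150 and 94 bases before the start, 1 GAAANNGAAA repeat and 1 AP-1 site. The Cxcl9 window held no match to any of the 5 patterns. Ccl17 held 1 match to each STAT-type pattern, and Ccl20 held 1 NF-kB match on the opposite strand, 71 to 80 bases before the start. Of the windows not printed, that of Ccr4 held 1 AP-1 site and those of Ccl22, Cxcr3 and Cxcr6 held none. Among 32851 windows of the same length, 3.9% held the NF-kB consensus, 4.46% the AP-1 site, 2.98% GAAANNGAAA, 7.02% TTCNNNGAA and 5.85% TTCNNNNGAA. A match describes letters, and no binding was measured. Cxcl9 and Cxcl10 lie 18.6 kb apart on chromosome 5, and Ccl17 and Ccl22 lie 58.8 kb apart on chromosome 8.

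In the whole libraries, before any division into classes, Cxcl10 was the member with the largest ratio between takinib and vehicle. Its level was 6.31 CPM (the UMIs of the gene divided by all UMIs of the cells, times 1000000) in vehicle and 30.9 in takinib, from 265 and 3703 UMIs. Cxcr6 was also higher in takinib, 0.976 against 2.46 CPM. Lower in takinib were Ccl22 at 7.43 against 2.36 CPM, Cxcl9 at 5.19 against 2.39, Cxcl16 at 173 against 96.6 and Ccl17 at 91.1 against 46.4. Cxcr3 was at 0.714 and 1.11 CPM, Ccr7 at 8.10 and 7.27, Ccl20 at 1.6 and 1.43 and Ccr4 at 0.214 and 0.184. These sums mix the level within each class with the number of cells of that class, so the levels below are given class by class. The plot of levels by class gives all 10 genes, and the plot of where the UMIs lie gives each gene's main classes.

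**Figure D1:**
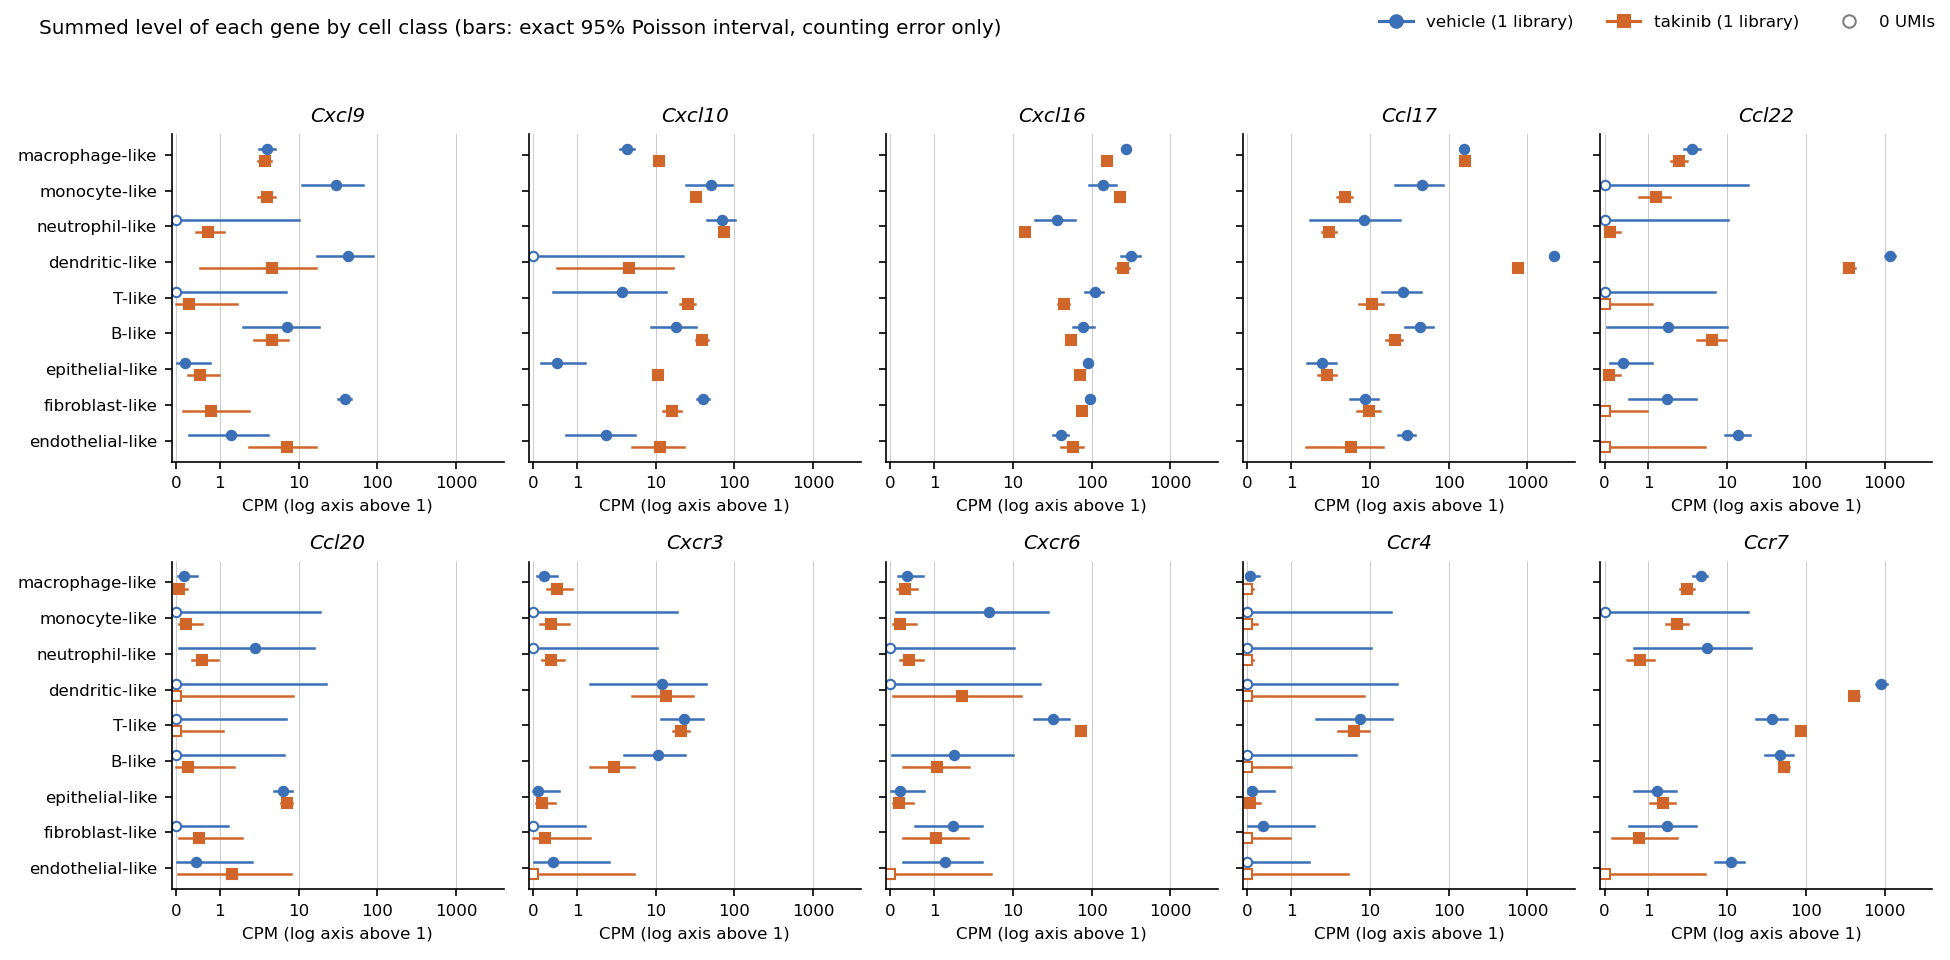
Level of each of the 10 genes in each cell class in CPM (horizontal axis, logarithmic above 1), with 1 point per library and exact 95% Poisson intervals of counting error. Ccl17, Ccl22 and Ccr7 are highest in dendritic-like cells, Cxcr6 and Ccr4 in T-like cells, and Ccl20 in epithelial-like cells.

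**Figure D2:**
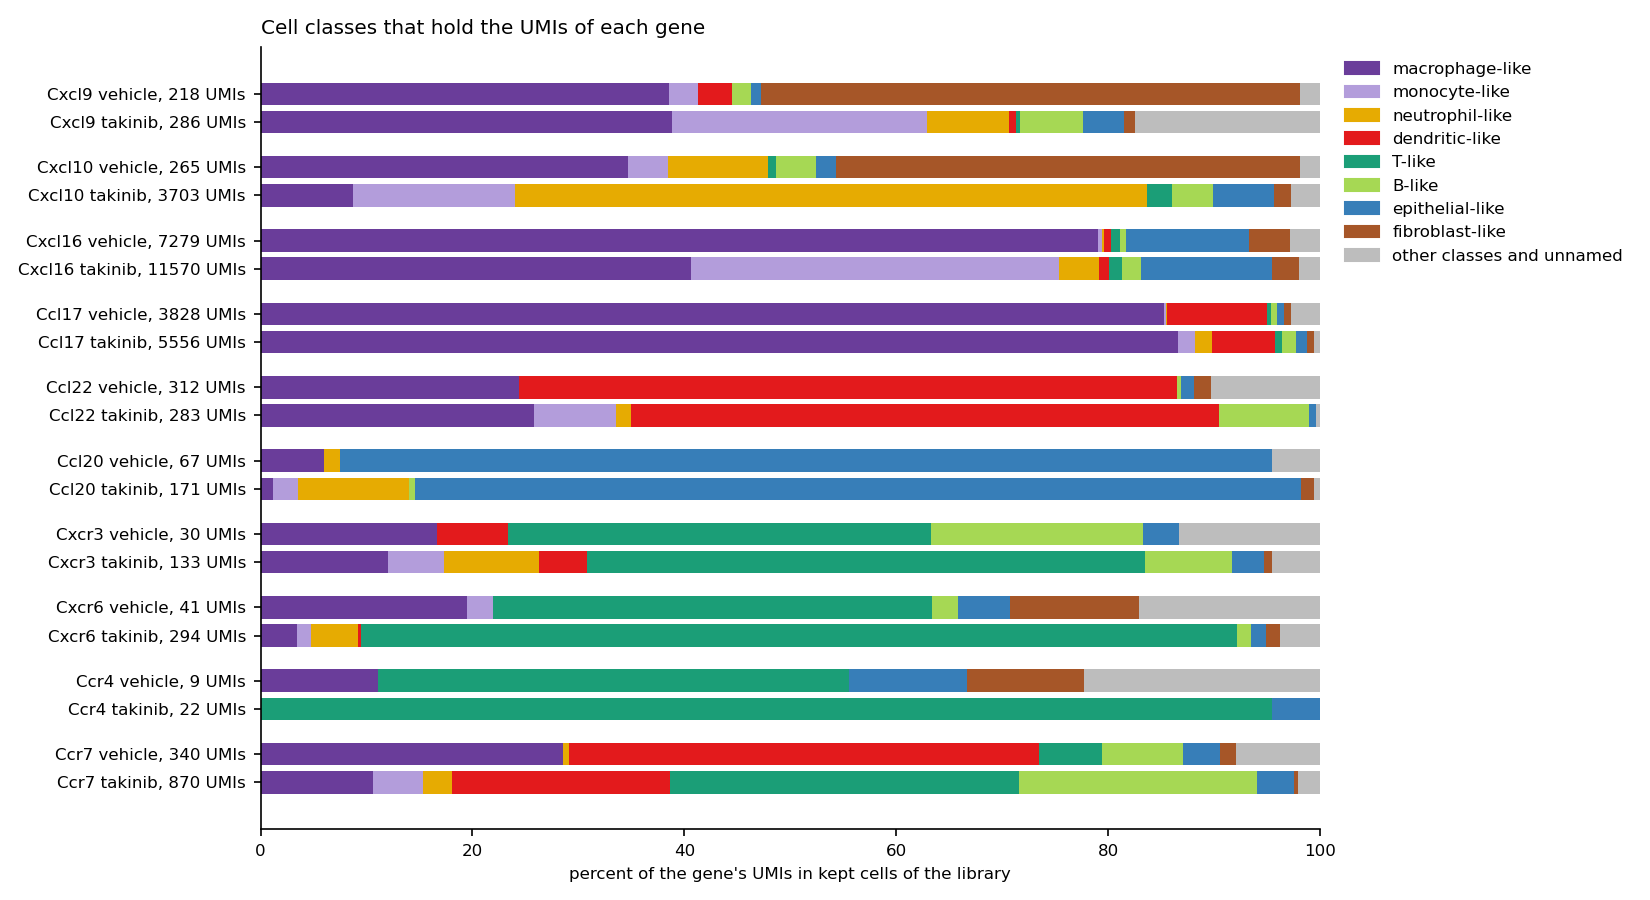
Share of each gene's UMIs, in percent of all its UMIs in kept cells of a library (horizontal axis), that lay in each cell class. For Cxcl10 the largest share lay in fibroblast-like cells in vehicle (43.8%), mostly in a single cell, and in neutrophil-like cells in takinib (59.7%). Of the vehicle cells with a Cxcl10 UMI, 49.4% were macrophage-like and 15.7% fibroblast-like. For Ccl17, 85.3% of vehicle UMIs and 86.6% of takinib UMIs lay in macrophage-like cells.

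Cxcl10 was carried by different cells in the 2 libraries. In vehicle, 43.8% of its UMIs lay in fibroblast-like cells and 34.7% in macrophage-like cells. A single cell held most of the fibroblast-like UMIs. Of the vehicle cells with a Cxcl10 UMI, 49.4% were macrophage-like and 15.7% fibroblast-like. In takinib, 59.7% lay in neutrophil-like cells, 15.3% in monocyte-like cells and 8.72% in macrophage-like cells. Within neutrophil-like cells the level was similar, 69.4 CPM [44.9, 102] in vehicle and 74.1 [71.0, 77.2] in takinib. The vehicle value rests on 25 UMIs in 13 of 269 cells, and the takinib value on 2210 UMIs in 698 of 12123 cells. The takinib-to-vehicle ratio was 1.07 [0.721, 1.65] in a class where the median gene had a log2 ratio of -0.66.

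The neutrophil-like cells were not of one kind. Of the 269 in vehicle, 257 lay in 1 cluster led by Cxcr2 and G0s2, and at a finer resolution a cluster of 243 vehicle cells led by Siglecf stood apart and stayed unnamed. Siglecf was at 428 CPM in vehicle and 21.7 CPM in takinib neutrophil-like cells. In the Cxcr2 cluster Cxcl10 was at 75.6 CPM in vehicle and 10.5 CPM in takinib (25 and 36 UMIs), 7.19 times lower in takinib. The takinib UMIs lay instead in clusters with 0 to 4 vehicle cells. The level was 133 CPM in the one led by G0s2, Hdc and Acod1 with Il1b, and 109 CPM in the one led by Ccl3 and Ccl4. A cluster led by the pancreatic endocrine genes Ppy and Pyy was at 34.2 CPM, and one led by stefin genes at 26.6 CPM. The Ppy cluster had 0 neutrophil markers among its 10 leading genes. The cluster led by the secondary granule genes Ngp and Camp was lowest, at 10.1 CPM. Among takinib neutrophil-like clusters the level thus ran from 10.1 to 133 CPM.

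In macrophage-like cells Cxcl10 was at 4.38 CPM in vehicle (92 UMIs in 41 of 4876 cells) and 10.9 CPM in takinib (323 UMIs in 102 of 4058 cells), a ratio of 2.49 [1.97, 3.17]. It was 1 of 2 members at least 2-fold higher, with Cxcr3, which had 5 and 16 UMIs there. The 2-fold call for Cxcl10 did not hold under every alternative. The log2 ratio of 1.32 became 0.73 at Leiden resolution 0.5, 0.49 with vehicle cells of female origin and 0.54 with 10 CPM added. Among 13700 genes with at least 20 UMIs in that class, 7.2% were at least 2-fold higher in takinib and 8.41% at least 2-fold lower. None of the 7 members with enough UMIs was 2-fold lower. The clusters inside the class differed in their ratio: Cxcl10 was at 3.46 and 2.50 CPM in the cluster led by MHC class II genes, 6.07 and 4.58 in the one led by Chil3 and Car4, 5.25 and 11 in the one led by Selenop and C1qc, and 8.06 and 22.1 in the cycling one. In the cluster led by Mmp12 and Gpnmb it was at 0 UMIs in 49 vehicle cells and 19.5 CPM in 747 takinib cells. The takinib cells lay mostly in the Chil3, Selenop and Mmp12 clusters, and 3360 of the vehicle cells in the MHC class II cluster.

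Epithelial-like cells had 5 Cxcl10 UMIs in vehicle and 213 in takinib, 0.537 against 10.6 CPM, a ratio of 19.7 [8.31, 61.3]. The takinib UMIs came from 72 of 1786 cells, 41 of them from a single cell. Cxcl10 was the 1 of 5 members past 2-fold higher in this class, where 7.96% of 14700 genes were at least 2-fold higher and 11.4% at least 2-fold lower, with none of the members among the latter. T-like cells had 2 and 85 UMIs (3.76 and 25.5 CPM), and B-like cells 10 and 143 (17.9 and 38.7 CPM). The 10 vehicle B-like UMIs came from 1 cell, and 118 of the 143 takinib ones from a B-like cluster with 3 vehicle cells. In monocyte-like cells the levels were 50.2 CPM from 10 UMIs and 32.1 CPM from 565 UMIs.

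Neutrophil genes were higher in takinib both in classes where Cxcl10 was higher and in classes where it was lower. The 10 neutrophil markers summed to 155 and 10074 CPM in epithelial-like cells of vehicle and takinib, to 570 and 17776.5 CPM in T-like cells, to 681 and 38175 CPM in B-like cells and to 339 and 6547 CPM in macrophage-like cells. Of the 10 markers, 0 were at 0 in the 4 takinib classes, and between 0 and 2 in the vehicle ones. The sums were also higher in takinib in fibroblast-like cells, 154 and 11137 CPM, where Cxcl10 was at 40.1 and 16.2 CPM. In monocyte-like cells they were 5276 and 11576 CPM, with Cxcl10 at 50.2 and 32.1 CPM. For every 10000 UMIs of S100a8 and S100a9 together, the takinib library held 5.60 [5.37, 5.84] Cxcl10 UMIs in neutrophil-like cells, 11.8 [10.3, 13.5] in epithelial-like, 15.3 [12.2, 18.9] in T-like, 10.8 [9.09, 12.7] in B-like, 18.0 [16.1, 20.1] in macrophage-like and 29.6 [27.2, 32.1] in monocyte-like cells. Those ratios exceeded the neutrophil-like value in each of these 5 classes, as did the 15.8 [12.1, 20.3] of fibroblast-like cells. Intervals that include 5.60 were found in endothelial-like (4.89 [2.11, 9.64]), dendritic-like (5.58 [0.676, 20.2]) and erythroid-like cells (6.52 [4.49, 9.16]). The same held for plasma-like (2.64 [0.857, 6.16]) and unnamed cells (8.16 [4.57, 13.5]). Granulocyte precursor-like cells were lower, at 0.994 [0.710, 1.35]. In the takinib T-like cells, 57 of the 85 UMIs lay in a sub-cluster of 265 cells led by neutrophil genes such as Ccl3 and S100a8. How much RNA from neutrophils adds to Cxcl10 in other classes was not tested.

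Fibroblast-like cells went the other way for both CXCR3 ligands, through a handful of cells. Cxcl10 was at 40.1 CPM in vehicle and 16.2 CPM in takinib, 116 UMIs in 13 of 697 cells against 61 UMIs in 20 of 352 cells. A single vehicle cell held 78 of the 116 UMIs, and without the 2 highest cells of each library the ratio moved from 0.404 [0.291, 0.555] to 1.22. Cxcl9 was at 38.4 CPM in vehicle, 111 UMIs in 12 cells, of which 1 held 62, and at 0.797 CPM in takinib, 3 UMIs in 1 cell. All 111 lay in the cluster led by Col1a1 and Sfrp1, whose 102 takinib cells held 0. Cxcl10 had 100 and 2 UMIs in that cluster (ratio 0.0776 [0.00927, 0.288]). In the cluster led by Dcn and Serpinb2 it had 16 and 59 UMIs (ratio 0.846 [0.481, 1.58]). The 2 genes were 2 of 4 members past 2-fold lower, in a class where 13% of 12144 genes were at least 2-fold lower and 7.81% at least 2-fold higher.

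Cxcl9 in macrophage-like cells was nearly the same in both libraries, 4.0 CPM [3.19, 4.95] and 3.74 CPM [3.08, 4.51], a ratio of 0.937 [0.70, 1.26]. It was rare: 17 of 4876 vehicle cells and 24 of 4058 takinib cells had a UMI, and the highest cells held 33 and 32 UMIs. The value was not stable: without doublet removal the log2 ratio was 1.12, from 34 and 108 UMIs, and after thinning it was -1.09. In the MHC class II cluster the level was 5.97 CPM in vehicle and 5.0 in takinib, the latter from 10 UMIs. Without the 2 highest cells of each library that ratio went from 0.837 to 0.183. The Selenop cluster had 0 UMIs in 370 vehicle cells against 53 UMIs in 1126 takinib cells (7.18 CPM). The cycling cluster had 2 and 24 UMIs (1.47 and 12.6 CPM, ratio 8.61 [2.14, 75.2]). The highest level of any cluster in either library was 79.5 CPM, in 125 unnamed takinib cells led by Vcam1, Cd5l and Spic, from 44 UMIs in 6 cells. Vehicle dendritic-like cells were at 42.4 CPM (7 UMIs in 2 of 56 cells) and takinib ones at 4.56 CPM (2 UMIs). Both ligands were found together in some cells. Of 79 takinib cells with Cxcl9, 27.8% also had Cxcl10, against 4.62% of the other cells, and in vehicle 12.2% of 41 cells against 0.82%.

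The interferon genes that feed these 2 ligands differed little in macrophage-like cells. Of 11 with at least 20 UMIs, 1 was past 2-fold higher and 0 lower, beside 7.2% and 8.41% of all genes there. The median log2 ratio was 0.21 beside 0.02 for all genes. The higher one was Irf7, a factor of the type I interferon response, at 4.99 and 16.7 CPM (ratio 3.35). The receptor chain Ifngr1 was at 235 and 288 CPM. In T-like cells 2 of 12 were past 2-fold higher and 0 lower, beside 6.88% and 6.78% of all genes there. The higher ones were Irf7 and Ifng, the gene of interferon gamma, which had 1 UMI in vehicle and 90 in takinib (20 of 1240 cells). In neutrophil-like cells 3 of 11 were higher and 1 lower, beside 4.2% and 38.2% of all genes there. Those higher were Ifnar1 (38.9 and 79.8 CPM), Ifnar2 (83.3 and 188) and Irf9 (13.9 and 34.5).

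**Figure D3:**
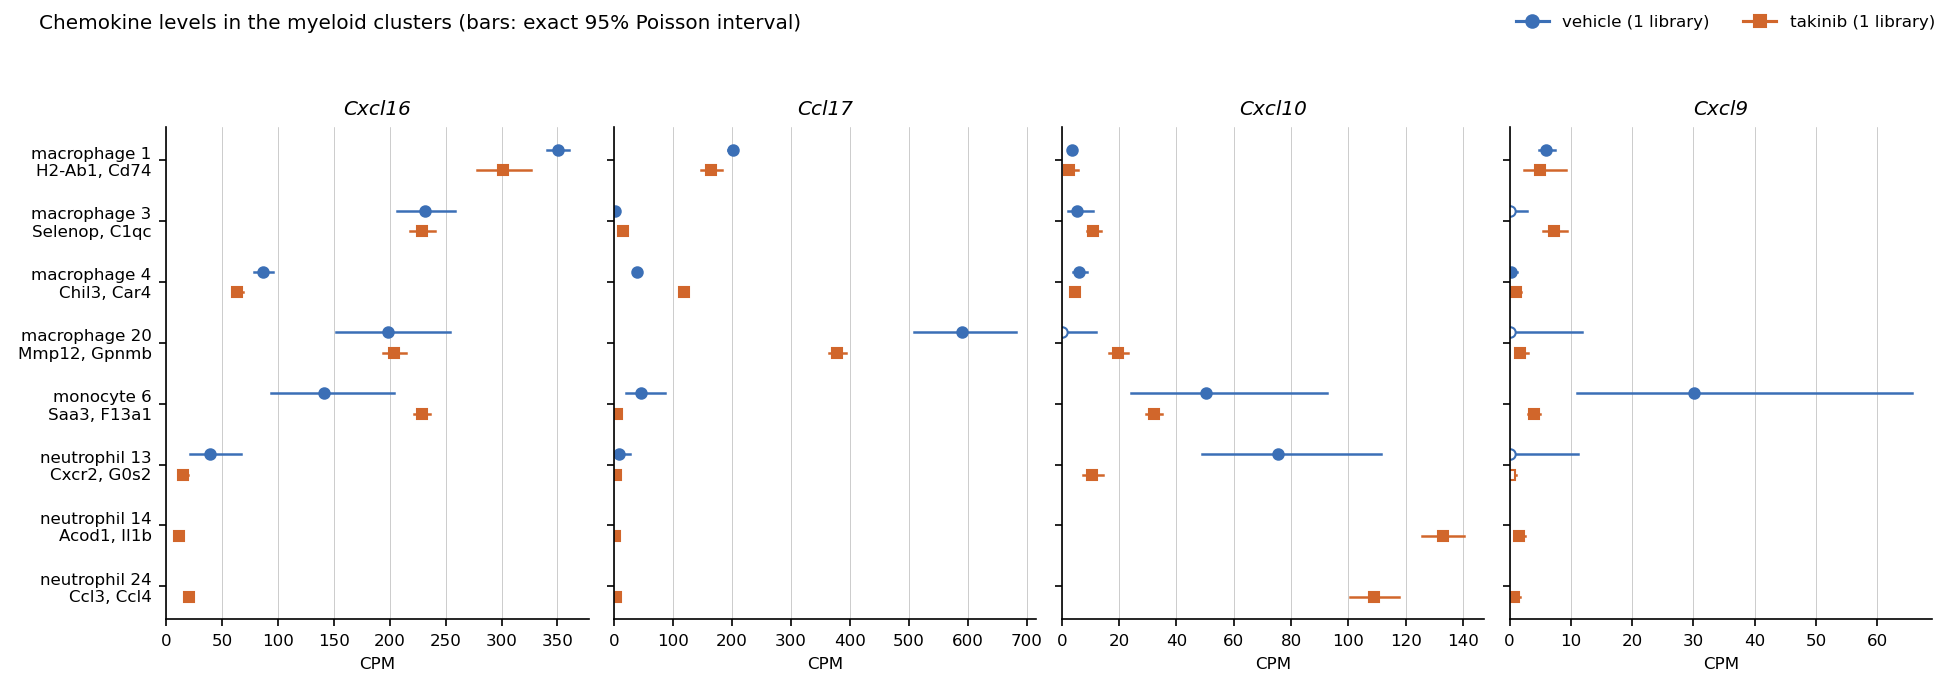
Levels of the chemokine genes in CPM (horizontal axes, linear) in the myeloid clusters, named by leading genes, with 1 point per library and exact 95% Poisson intervals. Cxcl10 reaches 133 CPM in the takinib neutrophil-like cluster led by G0s2 and Acod1, and Ccl17 is highest in the Mmp12 cluster, at 591 CPM in vehicle (49 cells) and 379 in takinib, a direction that turns without the 2 highest cells of each library.

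Cxcl16 was the most widespread ligand of the 10 genes. In macrophage-like cells it was at 274 CPM [267, 281] in vehicle and 159 CPM [154, 163] in takinib, a ratio of 0.580 [0.558, 0.602]. A UMI was seen in 54.5% and 46.7% of those cells, and in 22.4% and 14.0% after each cell was thinned to 1000 UMIs, since median depths were 3872 and 6457.5 UMIs. Perivascular-like cells of vehicle, a class not known for Cxcl16, had it in 4.28% of 584 cells at a median of 3110.5 UMIs. Barcodes of at most 100 UMIs in vehicle, which hold free RNA rather than cells, carried Cxcl16 at 101 CPM, near the 91.1 of epithelial-like, 96.8 of fibroblast-like and 109 of vehicle T-like cells. The macrophage-like and dendritic-like levels exceeded the free RNA level. Vehicle endothelial-like and neutrophil-like cells were well below it, at 40.7 and 36.1 CPM. How much free RNA adds to the level of a cell was not tested. No barcode of that size is in the takinib matrix.

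The lower macrophage-like level in takinib went with a different mix of clusters. In the cluster led by MHC class II genes Cxcl16 was at 350 CPM in vehicle and 301 in takinib, and that cluster held 3360 of 4876 vehicle cells but 342 of 4058 takinib cells. In the Selenop cluster it was at 231 and 229 CPM, in the Mmp12 cluster at 198 and 204, in the Chil3 cluster at 86.6 and 63.7 and in the cycling cluster at 179 and 102. The within-cluster ratios thus ran from 0.568 to 1.03, beside 0.580 for the class. Vehicle macrophage-like cells of female origin, 540 cells, gave a log2 ratio of 0.03 in place of -0.79, so the direction did not hold when only these cells stood for vehicle. They were set against all 4058 takinib cells of the class. The rule for female origin, Xist and no Y-linked UMI, was applied to vehicle only, so the 2 sides were chosen differently. Monocyte-like cells were at 141 CPM [93.5, 203] in vehicle, from 28 UMIs in 77 cells. In takinib they were at 229 CPM [222, 236] and held 34.8% of all Cxcl16 UMIs. The name of this class is uncertain. Its takinib cells had 6475 CPM of macrophage markers and 6076 CPM of monocyte markers. Takinib macrophage-like cells had 10174 CPM of monocyte markers.

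Epithelial-like cells were at 91.1 and 71.5 CPM (ratio 0.785 [0.721, 0.856]) and fibroblast-like cells at 96.8 and 76.2 CPM (0.787 [0.665, 0.931]). The fibroblast-like cells lay in different clusters, 561 of 697 vehicle cells in the one led by Col1a1 and Sfrp1 and 250 of 352 takinib cells in the one led by Dcn and Serpinb2. Within these clusters the ratios were lower than in the class, 0.414 [0.231, 0.695] and 0.478 [0.387, 0.594]. Within the epithelial class, the Krt7 cluster was at 120 and 79.2 CPM, while the goblet-gene cluster was at 4.24 CPM in vehicle (3 UMIs in 102 cells) and 82.4 CPM in takinib (43 UMIs in 84 cells). Dendritic-like cells were at 315 CPM [235, 413] and 251 CPM [206, 302], and their mature sub-cluster at 562 and 835 CPM. In T-like cells Cxcl16 was at 109 and 44.6 CPM, with 49 of 58 vehicle UMIs and 122 of 149 takinib UMIs in a sub-cluster led by Apoe, C1qa and other macrophage genes. In T-like cells the 12 macrophage markers together reached 7064 CPM (vehicle) and 2659 CPM (takinib), with 0 of the 12 at 0. Neutrophil-like cells had 36.1 and 14.5 CPM. The proteases that release CXCL16 were at 162 and 125 CPM (Adam10) and 76.7 and 87.2 CPM (Adam17) in macrophage-like cells.

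Most Ccl17 UMIs lay in macrophage-like cells, a class whose border with dendritic-like cells depended on the clustering. At a finer resolution 253 vehicle and 166 takinib cells were named dendritic-like, against 56 and 96 here. Of the vehicle macrophage-like UMIs, the MHC class II cluster held 2727 of 3264 for Ccl17, 70 of 76 for Ccl22 and 92 of 97 for Ccr7. Macrophage-like cells held 85.3% of its UMIs in vehicle and 86.6% in takinib, at 155 CPM [150, 161] and 162 CPM [158, 167], a ratio of 1.05 [1.00, 1.09]. A UMI was present in 9.45% and 14.6% of the cells (5.15% and 6.51% after thinning), and single cells held up to 89 and 140. The clusters within the class were unequal. Ccl17 was at 201 and 165 CPM in the MHC class II cluster, 38.7 and 118 in the Chil3 cluster (ratio 3.06 [2.61, 3.61]), 2.25 and 15 in the Selenop cluster (3 and 111 UMIs), 130 and 142 in the cycling cluster and 591 and 379 in the Mmp12 cluster. Without the 2 highest cells of each library the ratio turned from 0.641 to 1.31 in the Mmp12 cluster, which had 49 vehicle cells, and went from 1.09 to 1.80 in the cycling cluster and from 0.821 to 0.533 in the MHC class II cluster. The 747 takinib cells of the Mmp12 cluster alone held 2811 of the 5556 takinib UMIs. Free RNA in vehicle carried Ccl17 at 35.3 CPM, above the 26.3 CPM of vehicle T-like cells and 29.1 CPM of vehicle endothelial-like cells. Vehicle epithelial-like cells were far below it, at 2.47 CPM.

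Dendritic-like cells, 56 in vehicle and 96 in takinib, had the highest level of any class for Ccl17, Ccl22 and Ccr7 in both libraries. Ccl17 was there at 2179 CPM in vehicle and 755 in takinib (360 and 331 UMIs, ratio 0.346 [0.297, 0.403]). Ccl22 was at 1174 and 358 CPM (194 and 157 UMIs, ratio 0.305 [0.245, 0.378]), and Ccr7 at 914 and 408 CPM (151 and 179 UMIs, ratio 0.447 [0.358, 0.558]). These were 3 of the 4 members with enough UMIs and all 3 were past 2-fold lower in takinib, where 7.68% of 4048 genes were at least 2-fold lower and 11.5% at least 2-fold higher. A Ccl22 UMI was seen in 50.0% of vehicle and 19.8% of takinib dendritic-like cells.

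The mix of dendritic-like cells differed between the libraries. The class split into a mature sub-cluster led by Fscn1 with 32 vehicle and 21 takinib cells, a Clec9a sub-cluster with 7 and 21, and others that lay nearly in 1 library. In the mature sub-cluster Ccl17 was at 2237 and 2545 CPM (ratio 1.14 [0.924, 1.40]), Ccl22 at 2360 and 1922 CPM (0.815 [0.652, 1.02]) and Ccr7 at 1822 and 2148 CPM (1.18 [0.938, 1.48]). Each of those 3 intervals includes 1. Outside it, Ccl22 had 1 of 194 vehicle UMIs and 12 of 157 takinib UMIs. A further 14 vehicle cells led by Dcstamp, Cd209a and Mgl2 held another 177 Ccl17 UMIs at 3661 CPM with 1 UMI of Ccl22, and 32 takinib cells led by Mmp12 were at 488 CPM. Over the whole class, markers of mature dendritic cells together reached 2566 CPM (vehicle) and 1010.1 CPM (takinib), and those of conventional dendritic cells to 1452 and 1338 CPM.

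Ccl22 outside dendritic-like cells was low. Macrophage-like cells were at 3.61 and 2.46 CPM (76 UMIs in 35 cells and 73 UMIs in 12 cells, ratio 0.681 [0.487, 0.952]). Vehicle endothelial-like cells had 30 UMIs in 6 of 717 cells, and takinib ones 0 in 102 cells. The exact interval of that ratio ends at 0.405, and with 3 UMIs standing for 0 the takinib level was 3.23-fold lower. With so few cells behind the vehicle UMIs, the interval does not cover how they clump in single cells. The same vehicle class had 24 Ccr7 UMIs in 13 cells, and takinib 0. Ccl22 and Ccr7 met in single cells in both libraries. Ccr7 was found in 41 of 76 vehicle cells with Ccl22 (53.9%, against 1.16% of other cells) and in 25 of 49 takinib cells (51.0%, against 1.99%). Ccl17 was found in 69.7% and 46.9% of the cells with Ccl22.

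Of 7 genes for type 2 cytokine and GM-CSF input to Ccl17 and Ccl22 that were measured in macrophage-like cells, 0 were past 2-fold in either direction. Of all genes there, 7.2% were at least 2-fold higher and 8.41% at least 2-fold lower. The median log2 ratio of the 7 was -0.29 beside 0.02 for all genes. The IL-4 receptor chain Il4ra was at 129 and 104 CPM and Csf2rb, a chain of the GM-CSF receptor, at 304 and 249 CPM. Irf4, a factor of dendritic and alternatively activated cells, was at 17.6 and 10.2 CPM in macrophage-like cells. In dendritic-like cells it was at 96.8 and 13.7 CPM (16 and 6 UMIs), the 1 of 7 past 2-fold lower, beside 7.68% of all genes there. Csf2, the gene of GM-CSF, was at 62.6 and 16.7 CPM in epithelial-like cells, from 583 and 336 UMIs.

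Ccl20 was an epithelial gene in both libraries. Epithelial-like cells held 88.1% of its vehicle and 83.6% of its takinib UMIs, at 6.34 CPM [4.82, 8.17] and 7.10 CPM [5.98, 8.36], a ratio of 1.12 [0.822, 1.54]. A UMI was seen in 27 of 1539 and 45 of 1786 cells. The goblet-gene cluster stood out, with 38.1 CPM in vehicle (27 UMIs in 5 of 102 cells) and 146 CPM in takinib (76 UMIs in 13 of 84 cells), a ratio of 3.82 [2.43, 6.16]. The Krt7 cluster was at 3.77 and 3.02 CPM and the gastric Tff2 cluster at 2.48 and 5.57 CPM. T-like and dendritic-like cells had 0 Ccl20 UMIs in both libraries. Clustering each library on its own gave a log2 ratio of 4.01 in place of 0.16 for the class. Il17rc, a receptor chain through which IL-17 acts on epithelium, was at 25.7 and 16.2 CPM and Il17ra at 13.6 and 17.3 CPM in epithelial-like cells. Ccr6, the CCL20 receptor gene, was at 30.1 CPM (16 UMIs) in vehicle and 1.80 CPM (6 UMIs) in takinib T-like cells.

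The receptors were read in T-like cells, 254 in vehicle and 1240 in takinib, or 2.66% and 4.92% of cells. In this class 6.88% of 9802 genes were at least 2-fold higher in takinib and 6.78% at least 2-fold lower. Of 7 members with enough UMIs, 3 were past 2-fold higher (Cxcr6, Ccr7 and Cxcl10) and 2 past 2-fold lower (Cxcl16 and Ccl17). The Ccl17 ratio of 0.398, from 14 and 35 UMIs, became 1.83 without the 2 highest cells of each library. The sub-clusters that held the cells differed between libraries. Of the vehicle cells, 168 lay in a sub-cluster led by Chgb and Ctrb1, genes of endocrine and acinar cells, that held 9 takinib cells, while the naive, CD8, natural killer and gamma-delta sub-clusters held 0 to 3 vehicle cells each. The class level therefore mixes the share of each kind of T cell with the level in it.

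Cxcr6 was at 32.0 CPM [18.6, 51.2] in vehicle (17 UMIs in 13 cells) and 72.8 CPM [63.9, 82.5] in takinib (243 UMIs in 104 cells), a ratio of 2.28 [1.39, 3.97]. A sub-cluster of 66 takinib cells led by Il17a and Trdc, with no vehicle cell, held 163 of those UMIs at 771 CPM, in 55 of the 66 cells. Without it the takinib level was 25.6 CPM and the ratio 0.80 [0.470, 1.44]. Next came a cycling sub-cluster at 122 CPM in 24 takinib cells and the Foxp3 sub-cluster at 39.3 CPM in vehicle (2 UMIs) and 96.6 CPM in takinib (14 UMIs). Naive takinib cells were at 9.89 CPM. T-like cells held 41.5% of the Cxcr6 UMIs of vehicle and 82.7% of those of takinib. Levels elsewhere were low, 0.381 and 0.337 CPM in macrophage-like cells and 4.74 CPM (8 UMIs) in unnamed takinib cells.

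Ccr7 in T-like cells was at 37.6 CPM [23.0, 58.1] in vehicle (20 UMIs) and 86.0 CPM [76.3, 96.5] in takinib (287 UMIs), a ratio of 2.29 [1.45, 3.80], with a UMI in 7.48% and 19.0% of cells, and in 4.33% and 10.3% after thinning. Without the naive, gamma-delta and macrophage- or neutrophil-led sub-clusters Ccr7 had a ratio of 1.92 [1.12, 3.52], under 2-fold. Across takinib sub-clusters it was at 174 and 198 CPM in the naive ones, the second of which is led by interferon-induced genes such as Isg15, 144 CPM in the CD8 one, 55.2 CPM in the Foxp3 one and 0 UMIs in the gamma-delta one. The 168 vehicle cells of the Chgb sub-cluster were at 59.7 CPM. B-like cells, which also use CCR7, were at 46.6 CPM and 52.7 CPM, a ratio of 1.13 [0.75, 1.78]. Of the 1370 takinib B-like cells, 574 lay in a cluster with 3 vehicle cells. In the other B-like cluster Ccr7 was at 45.4 and 73.2 CPM, a ratio of 1.61 [1.05, 2.57].

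Cxcr3 was at 22.6 CPM [11.7, 39.4] and 21 CPM [16.3, 26.5] in T-like cells, 12 and 70 UMIs, a ratio of 0.929 [0.50, 1.88]. Without the naive, gamma-delta and macrophage- or neutrophil-led sub-clusters Cxcr3 had a ratio of 1.87 [0.906, 4.35]. In takinib it was highest in the sub-cluster led by the natural killer genes Gzma and Ncr1, at 89.0 CPM, then in the Foxp3 one at 75.9 CPM, the cycling one at 58.4 CPM and the CD8 one at 25.4 CPM, and naive cells had 1.98 CPM. The counts behind these are 9, 11, 12, 12 and 1 UMIs. Neighbours in this order down to the CD8 sub-cluster overlap within counting error, and the naive level lies below the CD8 one. The gamma-delta sub-cluster, highest for Cxcr6, had 0 Cxcr3 UMIs in 66 cells. Ccr4 was the sparsest member, with 4 and 21 UMIs (7.52 and 6.29 CPM, ratio 0.836 [0.282, 3.35]). Its level was highest in the Foxp3 sub-cluster, 39.3 CPM from 2 UMIs and 48.3 CPM from 7 UMIs, and a 2-fold difference was not detectable at this depth.

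**Figure D4:**
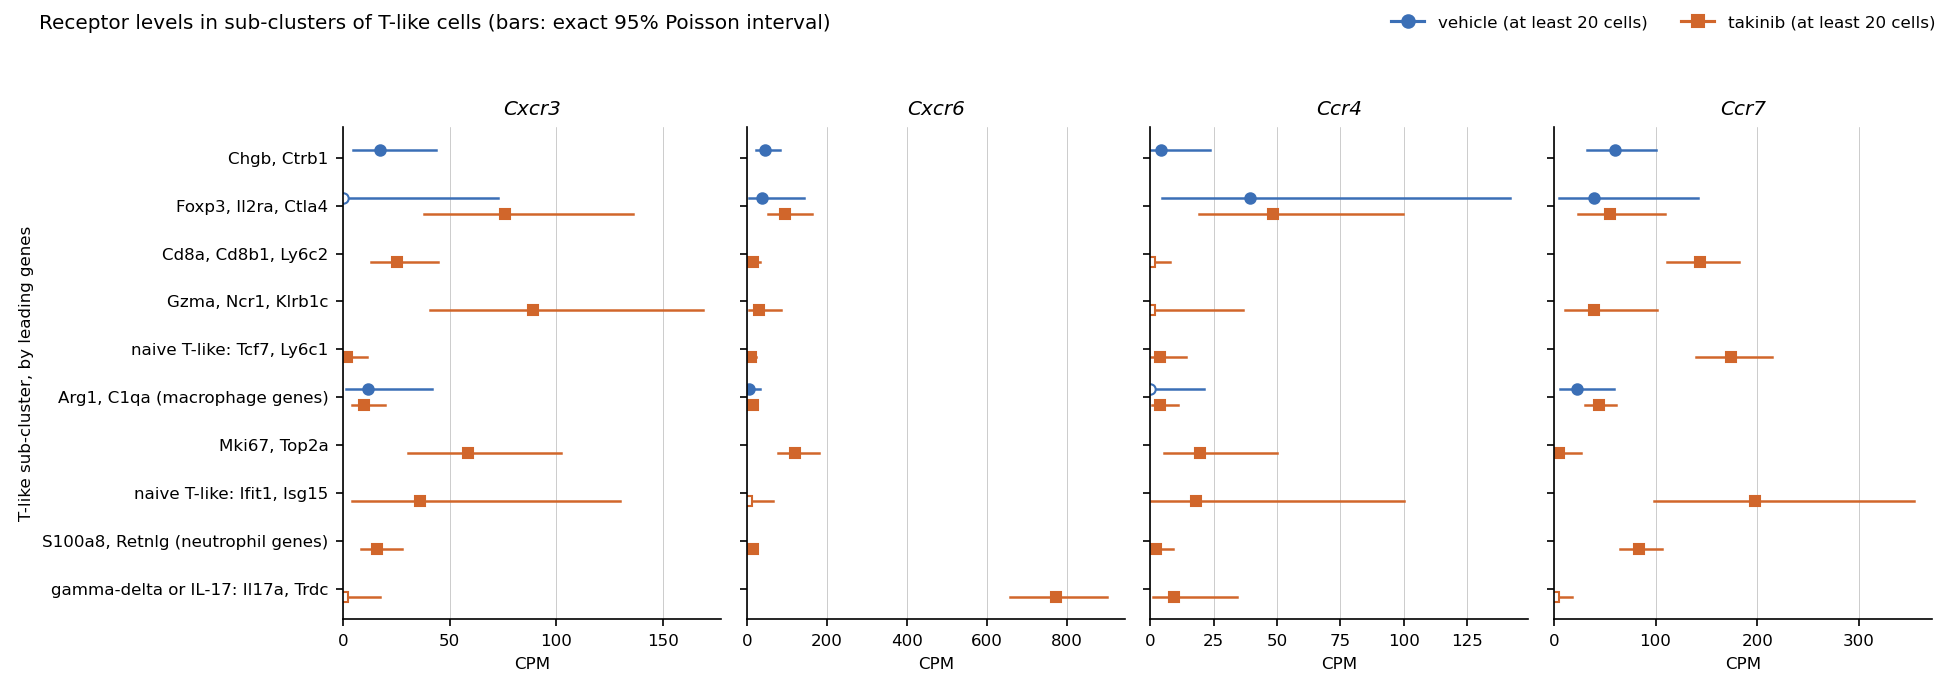
Levels of the 4 receptor genes in CPM (horizontal axes, linear) in sub-clusters of T-like cells named by leading genes, drawn for sub-clusters with at least 20 cells of a library, with exact 95% Poisson intervals. Cxcr6 reaches 771 CPM in the takinib sub-cluster led by Il17a and Trdc, where Ccr7 and Cxcr3 have 0 UMIs.

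**Figure D5:**
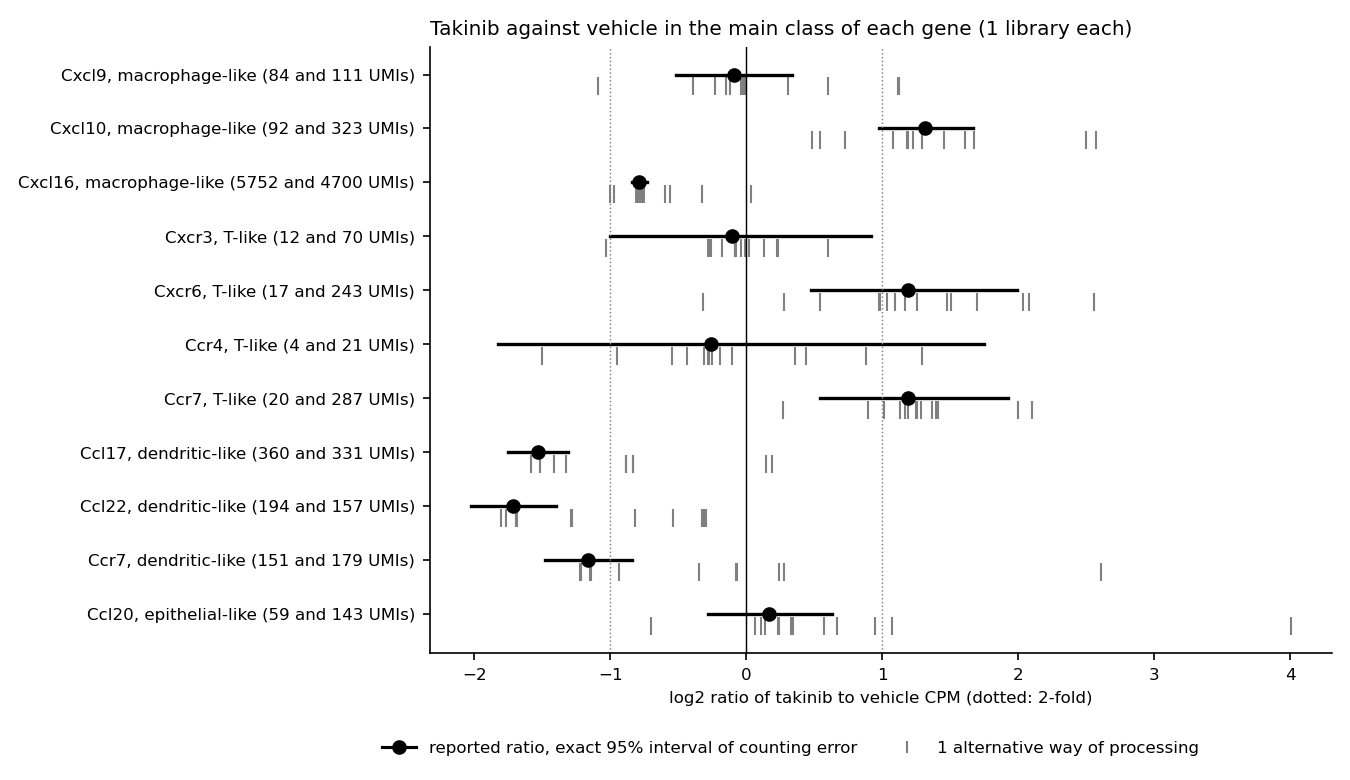
The log2 ratio of takinib to vehicle CPM (horizontal axis) for each gene in its main class, with the exact 95% interval of counting error and, as grey marks, the value under each other way of processing. Cxcl10 in macrophage-like cells lies above 0 under each alternative, and Ccl17 and Ccr7 in dendritic-like cells have marks on both sides of 0.

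Of 7 other chemokines that draw T cells measured in macrophage-like cells, 3 were past 2-fold higher in takinib and 0 lower, beside 7.2% and 8.41% of all genes there. Their median log2 ratio was 0.33 beside 0.02 for all genes. The MHC class II cluster held 3360 of 4876 vehicle but 342 of 4058 takinib cells of this class. Ccl5, a chemokine made by T cells and macrophages, was at 10.3 and 241 CPM, the B cell and follicular helper chemokine Cxcl13 at 2.76 and 124 CPM, and Ccl8 at 8.99 and 133 CPM. In fibroblast-like cells, whose 2 clusters held different shares of each library, 3 of 8 were higher and 3 lower, beside 7.81% and 13% of all genes there. Cxcl13 was at 149 and 970 CPM and Cxcl12, the CXCR4 ligand, at 131 and 505 CPM. In T-like cells Ccl5 was at 301 and 1236 CPM and Xcl1, which attracts cross-presenting dendritic cells, at 92.2 and 21.9 CPM. Of 7 other receptors measured in macrophage-like cells, 0 were higher and 3 lower, beside the same 7.2% and 8.41% of all genes. Among the lower ones were Ccr2 at 346 and 93.6 CPM and Cx3cr1 at 91.6 and 20.2 CPM. In T-like cells 1 of 7 was higher (Ccrl2, at 28.2 and 235 CPM) and 3 lower (Ccr6, Ccr9 and Cx3cr1), beside 6.88% and 6.78% of all genes there. The neutrophil markers summed to 570 and 17776.5 CPM in this class. What RNA from neutrophils adds to Ccrl2 there was not tested.

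In neutrophil-like cells 38.2% of 12441 genes were at least 2-fold lower in takinib and 4.2% at least 2-fold higher. Cxcl16, Ccl17 and Ccr7 were the 3 of 5 members past 2-fold lower there, the last 2 from 3 and 2 vehicle UMIs, and none was higher.

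Over 22 profiles, each a class in 1 library, the genes with the most similar pattern were found among 14950 by Pearson's r of log2 of CPM plus 10. The profiles share libraries, depth and free RNA, so r is a description. Ccl22 was closest to Apol7c and Nudt17 (r = 0.98 for both), which are also among the markers used to name mature dendritic cells, and Ccr7 to Gpr183 (0.95). Ccl17 was closest to Hfe and Clec10a (both 0.93), Cxcl16 to Ctsh (0.92) and Cxcl10 to Tgm1 (0.88). Cxcr6 was closest to Dapl1 and Gzmb (0.98 and 0.97), Cxcr3 to Pacsin1 and Stat4 (0.91 and 0.90), Ccl20 to Fgfr4 (0.99) and Cxcl9 to Nrg1 (0.80). Ccr4 had too few UMIs for this.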

How the data were processed

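The deposited files hold raw UMI counts per gene and barcode for 2 libraries of KPPC mouse pancreatic tumour. The authors made these counts with Cell Ranger, version 4 for vehicle and 6.1.1 for takinib per the file headers, while the submitters' processing notes name Cell Ranger 2.1.1 and build mm10 for both. The vehicle matrix is unfiltered (704261 barcodes), and every takinib barcode holds at least 500 UMIs, so free RNA could be read in vehicle only. Gene IDs of all 10 members match the GENCODE M21 annotation of GRCm38.

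Cells were kept with at least 1000 UMIs, 500 genes and at most 20% mitochondrial UMIs. Doublets called by Scrublet were removed: 314 in vehicle by the automatic threshold, and in takinib, where that threshold marked 0.00373% of cells, the 1607 cells with the highest 6% of scores. Both libraries were clustered together (scanpy 1.11.5, Python 3.11.15, 2000 variable genes without the members and listed chemokine genes, 30 components, 15 neighbours, Leiden resolution 1 with igraph 0.11.9). A cluster took the name of the class whose markers, each scaled to its highest cluster plus 20 CPM, had the highest mean. It needed 3 markers in at least 10% of its cells with a scaled level above 0.2, a second class below 0.75 of the best, and no other class ahead among its 10 leading genes. Conventional and mature dendritic clusters were counted together.

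UMIs were summed per class and library and scaled to CPM, with exact Poisson intervals, exact Clopper-Pearson intervals for shares and exact conditional binomial intervals for ratios (scipy 1.17.1), all at 95% and for counting error only. Ratios were checked on simulated counts drawn independently for each gene. That simulation had no clumping of UMIs in single cells and did not use the rule for low counts given below, so it supports neither. A gene was called at a 2-fold ratio with at least 20 UMIs over both libraries. In that call a count under 3 in the lower library was set to 3, without letting the ratio change direction, a wording chosen after results were seen. With 1 library per group no test was run. The genes named are the 10 members and, from 5 lists, genes with at least 20 UMIs in a class. The members and lists were chosen with earlier results of these data known, and the sub-clusters were made after seeing the clusters. Of the 13 other chemokines listed, 12 are in the gene table, and Cxcl11 is not analysed here. Alternatives covered depth, mitochondrial share, doublets, cluster resolution, separate clustering, classes per cell from marker UMIs, thinning, an added 10 CPM, centring on the median gene, and vehicle cells of female origin.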

Additional observations from a re-analysis of the deposited data

How the results depend on the processing

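Of 142 recomputed log2 ratios, 93 stayed within counting error of the reported value, 42 moved beyond it and a further 7 reversed a value whose own interval lay on 1 side of 0. Ratios near 0, such as those of Cxcl9, Cxcr3, Ccr4 and Ccl20, changed sign under further alternatives. No paired analysis was possible because each group has 1 library. The cause of each shift was not tested unless the alternative's construction gives it.

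Reported log2 ratios come first in what follows. Cxcl9 in macrophage-like cells was -0.09 and became 1.12 without doublet removal, 1.11 at Leiden resolution 2, 0.60 with chemokine genes among the variable genes and -1.09 after thinning. Cxcl10 there was 1.32 and kept its direction: 2.57 without doublet removal, 1.68 with at least 2000 UMIs and 1000 genes, 0.73 at resolution 0.5, 2.50 with classes made per cell, 0.49 with vehicle cells of female origin and 0.54 with 10 CPM added. Cxcl16 there was -0.79 and moved to -0.56 at the higher depth, -0.60 at 10% mitochondrial UMIs, -0.98 at resolution 0.5, -1.0 with each library clustered on its own, -0.33 with classes per cell and, reversed, 0.032 with female-origin cells. In T-like cells Cxcr3 went from -0.11 to -1.03 at 10% mitochondrial UMIs. Cxcr6 went from 1.19 to 2.56 at the higher depth, 2.08 with classes per cell, 2.03 with female-origin cells, 0.28 after thinning and -0.32 without the gamma-delta sub-cluster. Ccr7 there went from 1.19 to 2.00, 2.1 and 0.27 at the higher depth, with classes per cell and with female-origin cells. In dendritic-like cells Ccl17 went from -1.53 to -0.83 without doublet removal, -0.83 at resolution 2, -0.89 clustered separately, 0.14 with classes per cell, -0.88 after thinning and 0.19 in the mature sub-cluster. Ccl22 went from -1.71 to -0.31, -0.54, -0.33, -0.82, -1.29 and -0.30 under the same 6 settings, and -1.28 with female-origin cells. Ccr7 went from -1.16 to -0.077 without doublet removal, -0.067 at resolution 2, 0.27 clustered separately, -0.35 with classes per cell, 2.61 with the 4 female-origin vehicle cells and 0.24 in the mature sub-cluster. Ccl20 in epithelial-like cells went from 0.16 to 0.95 at the higher depth, 1.07 at resolution 0.5, 4.01 clustered separately, 0.66 with chemokine genes among the variable genes and -0.70 with classes per cell. Ccl17 reversed with classes per cell and in the mature sub-cluster, Ccr7 in dendritic-like cells under separate clustering, female origin and the mature sub-cluster. Centring on the median gene and leaving out the 2 highest cells moved none of the 11. Leaving out the T-like sub-clusters led by macrophage or neutrophil genes moved none of the 4 receptor ratios. The alternatives on sub-clusters and on the highest cells were chosen after seeing the data.

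Thinning lowered, by construction, shares of cells with a UMI. In vehicle and takinib, macrophage-like shares became 0.287% and 0.493% (Cxcl10) and 22.4% and 14.0% (Cxcl16), and 0.172% in takinib for Cxcl9. T-like shares became 1.97% and 1.69% (Cxcr3), 0.394% and 0.645% (Ccr4), 4.33% and 10.3% (Ccr7) and, in takinib, 4.44% (Cxcr6). Ccl20 became 0.390% and 0.392%, and Ccl17 in takinib dendritic-like cells 21.9%. At the higher depth no dendritic-like class was named (0% in both), so its 3 ratios had no value. There macrophage-like cells were 47.2% and 20.4%, T-like 0.715% and 3.28%, neutrophil-like 0.151% and 23.0%, and takinib epithelial-like and fibroblast-like cells 11.1% and 2.39%. Genes 2-fold lower numbered 736 with at least 50 counts and 1828 with 1 against 1152 in macrophage-like cells, 299 and 2536 against 665 in T-like, 102 and 1202 against 311 in dendritic-like and, with 1 count, 2711 against 1677 in epithelial-like cells. Dendritic-like genes 2-fold higher were 138 with 50 counts against 467. The 10% mitochondrial limit gave values for 6 ratios of 11, resolution 0.5 for 8 and female origin for 10. Depth limits the receptors in T-like cells, whose vehicle sums are 4 (Ccr4), 12 (Cxcr3), 17 (Cxcr6) and 20 UMIs (Ccr7).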
